A study of Mus musculus with 12 samples.

Results

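The mRNAs of the mitochondrial ribosome were examined in the extensor digitorum longus (EDL), a fast-twitch hindlimb muscle of the mouse, by RNA-seq of 12 libraries. The genes were chosen by name: every row whose symbol began with Mrpl or Mrps followed by a number, without pseudogene symbols, and whose mean over the libraries reached 0.5 FPKM. FPKM is the number of fragments per kilobase of transcript, scaled to sequencing depth, and so a level per transcript length. This gave 78 genes of the 12744 that passed the same filter on low values and of the 17752 listed. All 78 passed it, and 1 further symbol, Mrpl23-ps1, was left out as a pseudogene.

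The libraries fell into 4 groups of 3 male mice. Both genotypes carried Nrip1 fl/fl alleles made in C57BL/6J mice, with loxP sites around the coding part of Nrip1, the gene of the nuclear receptor corepressor RIP140. Mice named strNrip1-/- also carried a Cre recombinase driven by the muscle creatine kinase (MCK) promoter, which acts in heart and skeletal muscle fibers, so that other cells of the muscle kept the gene. The controls, named WT, were Cre-negative littermates, and the Cre was brought in from C57BL/6JN mice. From 8 weeks of age the mice were kept sedentary or given voluntary running wheels for 8 weeks, so that all were 16 weeks old at the end, and poor runners had been removed. Each library is called here by its label, because Nrip1 itself went against the labels. It read 3.33 ± 0.689 FPKM in labelled WT and 15.5 ± 0.680 FPKM in labelled strNrip1-/- sedentary libraries, and 3.617 ± 1.117 and 17.4 ± 3.02 FPKM in the trained ones (SD, n = 3 each). The difference was 2.08 (SE 0.20) and 2.14 (SE 0.20) on the log2(FPKM + 0.5) scale, higher in the libraries labelled strNrip1-/- (limma adjusted p-values 0.000277 and 0.000208). A gene-level FPKM also counts exons outside the floxed region, and every direction between genotypes given here rests on the labels.

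Mitochondria keep their own ribosomes, which translate the few mRNAs of the mitochondrial genome. These mRNAs encode core subunits of the respiratory chain and of ATP synthase. The ribosomal RNAs come from the same genome, whereas all ribosomal proteins are encoded in the nucleus, made in the cytosol and imported. The small subunit binds the mRNA and decodes it, and the large subunit joins the amino acids and feeds the new chain to the inner membrane. Many of the proteins descend from the bacterial ancestor of the organelle, and others have no counterpart in bacteria. Muscle fibers rich in mitochondria have a high demand for this machinery.

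By the roles assigned to them, 51 of the 78 genes encode proteins of the large subunit and 26 proteins of the small subunit. By origin, 45 have a bacterial homologue and 32 are specific to mitochondria. Symbols do not always give the subunit, since the products of Mrps30 and Mrps18a sit in the large subunit. The remaining gene, Mrps36, encodes a component of the 2-oxoglutarate dehydrogenase complex and not a ribosomal protein. It was kept because the choice was made by name.

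The scale of each library, estimated from the steps between low values, ran from about 20040000 to 29180000 fragments, with 99.1% to 99.6% of the values used falling within 0.15 of a whole number of fragments. The way the FPKM were scaled is not known, so that this need not be the number of fragments sequenced. Among the cell type lists, muscle fiber markers read by far the highest in every library, at a summed 74101 to 120931 FPKM over 7 genes. Of the 7, Myh4, Actn3, Pvalb, Tnnt3 and Mylpf are genes of fast fibers. The sum of the 7 was lower in libraries labelled strNrip1-/-, at 74101 to 96016 against 99673 to 109436 FPKM in sedentary and 82817 to 87301 against 98975 to 120931 FPKM in trained muscle. The adipocyte list (6 genes) read 229 to 343 against 170 to 212 FPKM in sedentary muscle and overlapped in trained muscle (216 to 330 against 206 to 246 FPKM), and the endothelial list (5 genes) read 67.47 to 77.96 against 60.6 to 67.2 and 74.2 to 77.6 against 60.4 to 70.3 FPKM. The fibroblast list (5 genes) overlapped in sedentary muscle (347 to 432 against 326 to 353 FPKM) and read lower in labelled strNrip1-/- trained muscle (340.0 to 384.3 against 384.4 to 441.3 FPKM). The slow-fiber list (6 genes) overlapped in sedentary (90.9 to 286 against 54.9 to 257 FPKM) and in trained muscle (107 to 263 against 48.9 to 459 FPKM). The macrophage, Schwann cell, blood and tendon lists overlapped in both states. The part of these shifts in the differences below was not tested, and in whole muscle fewer cells of a type cannot be told apart from less RNA per cell.

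The mitochondrial ribosomal protein mRNAs spanned a wide range of levels. Mean FPKM over the 12 libraries had a median of 42.4 over the 78 genes, against 5.88 over all genes tested and 283 over the 95 genes listed for the cytosolic ribosome. Of the 78, 66 lay between 10 and 100 FPKM, 9 above and 3 below. The highest was Mrpl42, a large-subunit protein specific to mitochondria, at 483 FPKM. It was followed by Mrps21 at 321, Mrpl33 at 173, Mrpl14 at 133 and Mrpl30 at 115 FPKM. At the low end stood Mrpl19 at 4.06, Mrps2 at 8.40, Mrps35 at 8.92, Mrps30 at 10.6 and Mrpl35 at 11.5 FPKM. The highest level was 119 times the lowest. The subunits had similar medians, 45.1 FPKM for the large and 38.4 FPKM for the small one.

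Some libraries read high in the whole set. Against each gene's own mean over the 12 libraries, 77 of the 78 genes were above their mean in labelled strNrip1-/- sedentary replicate 2, with a median deviation of 0.33 on the log2 scale. The other replicates of that group had 51 and 19 genes above the mean. In labelled WT libraries, 56 genes were above it in sedentary replicate 2 and 53 in trained replicate 2, whereas the other 4 had 3 to 15. The 3 trained strNrip1-/- libraries had 71, 48 and 58. Labelled strNrip1-/- sedentary replicate 2, labelled WT sedentary replicate 2 and labelled WT trained replicate 2 also stood high in cytosolic ribosomal protein mRNAs (median deviations of 0.31, 0.12 and 0.15) and in short transcripts (0.084, 0.044 and 0.038, in that order). Short transcripts are here coding genes at a mean of at least 5 FPKM whose median annotated transcript is under 1000 nt. Labelled strNrip1-/- trained replicate 3 came next at 0.031, close to labelled WT trained replicate 2, so that the 3 libraries are not a sharply separate class. Trained strNrip1-/- replicates 1 and 3, with 71 and 58 genes above the mean, read -0.012 and 0.019 for the cytosolic ribosome. The slow-fiber sum was highest of its group in labelled WT sedentary replicate 2 (257 FPKM) and labelled WT trained replicate 2 (459 FPKM). In labelled strNrip1-/- sedentary replicate 2 it was 149 FPKM, between 286 and 90.9 FPKM in replicates 1 and 3. Results that rest on the 3 libraries that read high in short transcripts are given with and without them.

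**Figure D1:**
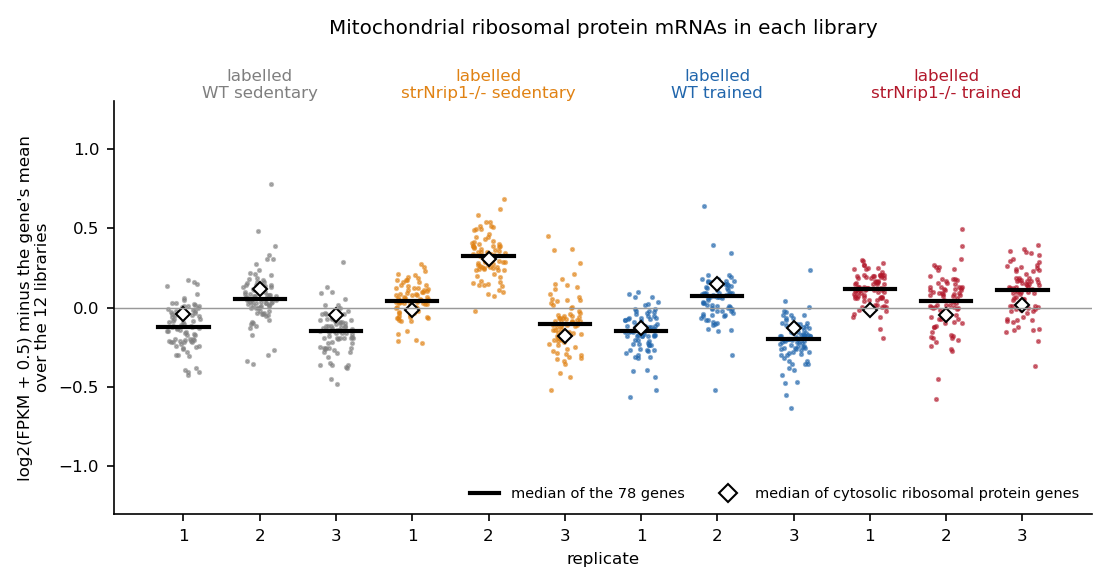
Deviation of each of the 78 mRNAs (points) from its own mean over the 12 libraries, on the log2(FPKM + 0.5) scale, by replicate and labelled group; bars give the median of the 78 genes and diamonds that of the cytosolic ribosomal protein genes. Labelled strNrip1-/- sedentary replicate 2 sits highest, at a median of 0.33, and the 3 trained strNrip1-/- libraries sit at 0.042 to 0.12.

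The labelled genotypes were compared in sedentary muscle first. In libraries labelled strNrip1-/-, 66 of the 78 mRNAs (84.6%, against 49.8% of all genes tested) read higher than in labelled WT, with a median log2 fold change (log2FC) of 0.17 against -0.001 over all genes tested. Past the call, an adjusted p-value under 0.05 with a fold change above 1.2, were 2 of the 78, both higher: Mrps2 and Mrpl10. Over all genes tested 3.51% were called in this comparison, 1.92% higher and 1.59% lower. At an unadjusted p-value under 0.05, 20 of the 78 (25.6%) were higher and 0 lower, against 7.86% and 8.46% of all genes. In 12 genes (15.4%) the 3 labelled strNrip1-/- values lay above all 3 labelled WT values, against 9.79% of all genes, and in 0 below, against 10.9% of all genes. Of the 2 calls, Mrps2 was kept with any 1 library left out, and 1 gene was called when any 1 library was left out among labelled WT sedentary replicates 1, 2 and 3, labelled strNrip1-/- sedentary replicates 1 and 2, labelled strNrip1-/- trained replicates 1, 2 and 3 and labelled WT trained replicate 1.

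The sedentary median rested in large part on 1 library. Without labelled strNrip1-/- sedentary replicate 2 it was 0.046, with 46 of 78 genes higher, and 1 gene was called. Without all 3 libraries that read high in short transcripts it was 0.11, with 56 genes higher and 1 called. With every library scaled to the same FPKM sum over all genes, the median over all genes moved to -0.14, that of the 78 genes was 0.015, and 0 were called. Mitochondrially encoded transcripts held 51.2% to 52.8% of FPKM in the labelled strNrip1-/- sedentary libraries and 42.2% to 44.6% in the labelled WT ones. Scaled to the same sum over nuclear genes, 16 of the 78 were called, all higher. Nuclear genes as a whole also move under this scaling, and the share of all genes called under it is not given. The 78 mRNAs together made up 0.655%, 0.729% and 0.669% of the FPKM of nuclear genes in labelled WT and 0.787%, 0.873% and 0.742% in labelled strNrip1-/- sedentary libraries, without overlap.

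In trained muscle 68 of the 78 mRNAs (87.2%, against 51.0% of all genes) read higher in libraries labelled strNrip1-/-, with a median log2FC of 0.19 against 0.007 over all genes. Again 2 were called, both higher, Mrps9 and Mrps27. The background was 5.98% called, 3.21% higher and 2.77% lower. At an unadjusted p-value under 0.05, 23 (29.5%) were higher and 0 lower, against 11.2% and 9.86% of all genes. The groups did not overlap in 29 genes (37.2%), all with labelled strNrip1-/- higher, against 13.9% of all genes, and 13.4% of all genes had them lower. The set's share of nuclear FPKM was 0.661%, 0.692% and 0.647% in labelled WT and 0.790%, 0.748% and 0.795% in labelled strNrip1-/- trained libraries. Scaling moved the count and not the direction: 23 were called with the same sum over all genes and 17 with the same sum over nuclear genes, all higher. The share of all genes called is not given for these scalings. Without the 3 libraries that read high in short transcripts, 27 were called, all higher, against 7.02% of all genes. Of the trained libraries, this leaves out only labelled WT trained replicate 2. That library had 53 of the 78 above their mean, against 7 and 3 in the other labelled WT trained ones. A rise in most of the differences was therefore built into this omission. The spread shared by all groups changes with it as well, and the part of each in the 27 calls was not tested. Left out singly, labelled WT trained replicate 1 or 3 or labelled strNrip1-/- trained replicate 3 took the count to 0, labelled strNrip1-/- trained replicate 1 or 2 or labelled WT sedentary replicate 3 to 1, labelled strNrip1-/- sedentary replicates 2 and 3 to 9 and 6, and labelled WT trained replicate 2 to 8. The share of all genes called is not given for these single omissions, so that the counts cannot be set against a background.

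**Figure D2:**
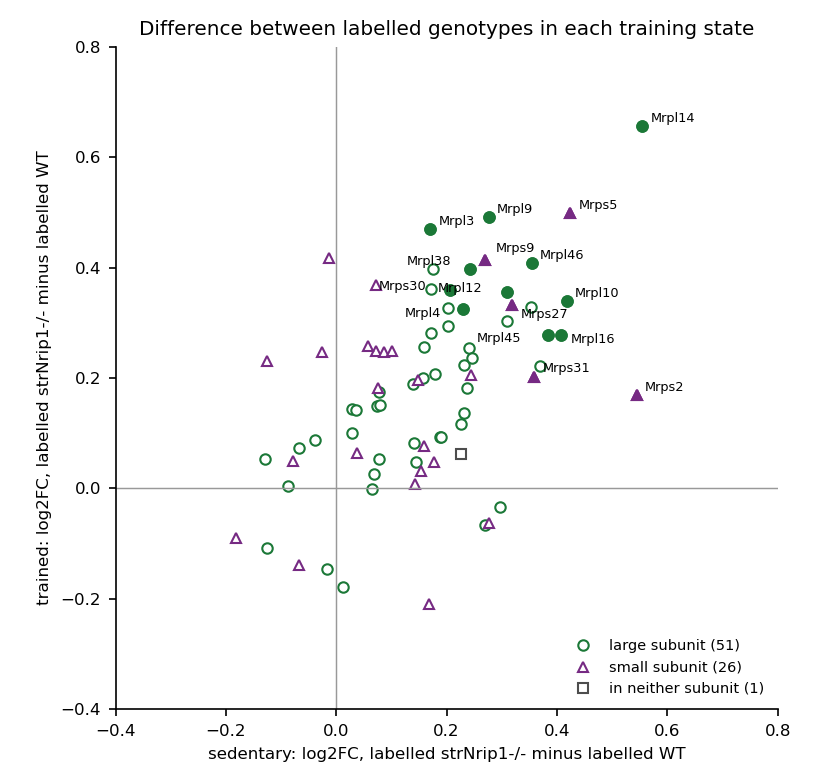
Difference between labelled genotypes (log2FC, labelled strNrip1-/- minus labelled WT) in sedentary (x axis) and trained (y axis) muscle for the 78 genes; circles are large-subunit and triangles small-subunit genes, and the square is Mrps36, and filled, named symbols are the 16 genes called in the average of both states. Most points lie above 0 on both axes (66 of 78 in sedentary and 68 of 78 in trained muscle), and Mrpl14 lies farthest out.

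The sedentary and trained differences come from separate libraries. Both comparisons take the spread from the same fit of all 12 libraries, so that their p-values and calls are not independent. Their average uses all 12. Averaged over training states, 69 of the 78 mRNAs (88.5%, against 50.8% of all genes) read higher in libraries labelled strNrip1-/- and 9 lower, with a median log2FC of 0.17 against 0.003 over all genes. Of the 78, 16 (20.5%) were called higher and 0 lower. The background was 8.8% of all genes called, 4.9% higher and 3.91% lower. At an unadjusted p-value under 0.05, 31 (39.7%) were higher and 0 lower, against 11.9% and 12.2% of all genes. A further 2, Mrps18b (0.22, adjusted p-value 0.0235) and Mrpl50 (0.18, adjusted p-value 0.0482), passed the adjusted p-value and not the fold change. The calls held 11 of 51 large-subunit and 5 of 26 small-subunit genes, and 10 of 45 with a bacterial homologue and 6 of 32 specific to mitochondria. Median log2FC was 0.18 for the large and 0.14 for the small subunit, and 0.12 for genes with a bacterial homologue and 0.19 for those specific to mitochondria.

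The number of calls depended on single libraries. It was 7 without labelled WT trained replicate 1 and 8 without labelled WT trained replicate 3, labelled WT sedentary replicate 1 or 3, labelled strNrip1-/- sedentary replicate 2 or labelled strNrip1-/- trained replicate 3. It was 9 without labelled strNrip1-/- trained replicate 1 and 10 without labelled strNrip1-/- sedentary replicate 1. With the same sum over nuclear genes it was 28, and without the 3 libraries that read high in short transcripts 18. The share of all genes called is not given for these counts. Called under each of the 24 settings, the main one included, were 6 genes: Mrpl10, Mrpl16, Mrpl45, Mrps2, Mrps9 and Mrps27. Mrpl14 was called under 23. At the other end stood Mrps30, called under 8.

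Of the small subunit, Mrps2, Mrps9 and Mrps27 had separate groups in both training states. Mrps2, a protein with a bacterial counterpart, has its gene (ENSMUSG00000035772) on chromosome 2, 28468066 to 28471178 (GRCm38, plus strand). It read 6.65, 6.48 and 6.83 FPKM in labelled WT sedentary, 9.56, 10.1 and 10.2 in labelled strNrip1-/- sedentary, 8.46, 7.92 and 7.58 in labelled WT trained and 9.05, 8.91 and 9.15 FPKM in labelled strNrip1-/- trained libraries. All 6 libraries labelled strNrip1-/- were above all 6 labelled WT, and the gap was wider in sedentary muscle. In sedentary muscle the log2FC was 0.54 (SE 0.070, limma adjusted p-value 0.00187). In trained muscle it was 0.17 (SE 0.070, adjusted p-value 0.193). Mrps2 also had the smallest spread within groups of the 78, with a pooled SD of 0.048 on the log2 scale, against a median of 0.17. With the same sum over all genes its sedentary log2FC was 0.40 and the adjusted p-value 0.0573.

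Mrps9, another protein of bacterial descent (ENSMUSG00000060679, chromosome 1, 42851233 to 42905683, plus strand), read 25.98, 28.00 and 27.08 FPKM in labelled WT sedentary, 33.8, 34.2 and 30.2 in labelled strNrip1-/- sedentary, 25.9, 28.8 and 23.6 in labelled WT trained and 36.9, 31.7 and 36.1 FPKM in labelled strNrip1-/- trained libraries. The genotypes did not overlap over the 12 libraries. In trained muscle the difference was 0.41 (SE 0.090, adjusted p-value 0.0216). In sedentary muscle it was 0.27 (SE 0.090, adjusted p-value 0.146). The trained call was lost with only the 2 trained groups in the fit (adjusted p-value 0.0720) and without labelled strNrip1-/- trained replicate 1 or 3 or labelled WT trained replicate 1 or 3 (adjusted p-values 0.0662 to 0.0900).

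Mrps27, a small-subunit protein with pentatricopeptide repeats and no bacterial counterpart (ENSMUSG00000041632, chromosome 13, 99344786 to 99415562, plus strand), read 20.6, 18.2 and 19.2 FPKM in labelled WT sedentary, 22.8, 25.5 and 24.4 in labelled strNrip1-/- sedentary, 20.7, 20.8 and 18.2 in labelled WT trained and 24.03, 26.32 and 25.10 FPKM in labelled strNrip1-/- trained libraries. Again every library labelled strNrip1-/- was above every labelled WT library. In sedentary muscle the log2FC was 0.32 (SE 0.080, adjusted p-value 0.0538) and in trained muscle 0.33 (SE 0.080, adjusted p-value 0.0335). The trained call was lost without labelled strNrip1-/- trained replicate 2 or 3, labelled WT trained replicate 1 or 3 or labelled WT sedentary replicate 3 (adjusted p-values 0.0516 to 0.124), and in 5 of 12 other settings (adjusted p-values up to 0.0783), among them the 2 trained groups alone (0.0783), the replicate block (0.0502) and trends by GC content and length removed (0.0585). Its exons overlap those of 6430562O15Rik on the other strand by 506 bases.

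Large-subunit genes with separate groups in both states were Mrpl10, Mrpl12 and Mrpl46. Mrpl10 and Mrpl12 encode proteins of the stalk, which recruits translation factors. Mrpl10 (ENSMUSG00000001445, chromosome 11, 97041560 to 97049213, plus strand) read 18.6, 21.6 and 19.4 FPKM in labelled WT sedentary, 25.8, 30.1 and 24.4 in labelled strNrip1-/- sedentary, 19.8, 20.2 and 17.2 in labelled WT trained and 25.7, 22.3 and 24.8 FPKM in labelled strNrip1-/- trained libraries. The lowest strNrip1-/- value, 22.3, was above the highest WT value, 21.6. In sedentary muscle its log2FC was 0.42 (SE 0.10, adjusted p-value 0.0467) and in trained muscle 0.34 (SE 0.10, adjusted p-value 0.0749). The sedentary call was close to the threshold and was lost on leaving out any 1 library except labelled strNrip1-/- sedentary replicate 3 and labelled WT trained replicate 3 (adjusted p-values 0.0512 to 0.176 where lost). It was also lost in 6 of 12 other settings (adjusted p-values up to 0.136), among them the replicate block (0.0532) and the same sum over all genes, where the log2FC was 0.26. The exons of Mrpl10 overlap those of Gm11574 on the other strand by 240 bases.

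Mrpl12 (ENSMUSG00000039640, chromosome 11, 120484613 to 120489065, plus strand) read 68.2, 80.8 and 70.3 FPKM in labelled WT sedentary, 87.4, 104 and 81.4 in labelled strNrip1-/- sedentary, 74.5, 89.6 and 67.2 in labelled WT trained and 103, 91.0 and 101 FPKM in labelled strNrip1-/- trained libraries. The gaps were narrow, 80.8 against 81.4 in sedentary and 89.6 against 91.0 FPKM in trained muscle. Averaged over training states its log2FC was 0.33 (SE 0.085, adjusted p-value 0.0282). The call was lost without labelled strNrip1-/- sedentary replicate 2, labelled strNrip1-/- trained replicate 1 or 3, labelled WT sedentary replicate 1 or 3 or labelled WT trained replicate 1 or 3 (adjusted p-values 0.0537 to 0.0741). Mrpl46, a large-subunit protein specific to mitochondria (ENSMUSG00000030612, chromosome 7, 78775236 to 78783531, minus strand), averaged 19.7 ± 2.37 FPKM in labelled WT and 25.6 ± 5.49 FPKM in labelled strNrip1-/- sedentary libraries, and 19.5 ± 2.48 and 25.9 ± 0.785 FPKM in the trained ones (SD, n = 3 each). Its averaged log2FC was 0.38 (SE 0.10, adjusted p-value 0.0330), a call lost without any 1 of labelled strNrip1-/- trained replicates 1, 2 and 3, labelled WT sedentary replicates 1 and 3 and labelled WT trained replicates 1 and 3 (adjusted p-values 0.0565 to 0.0835). Mrpl46 and the small-subunit gene Mrps11 lie head to head and share 173 exonic bases. Mrps11 had an averaged log2FC of 0.16 (SE 0.081, adjusted p-value 0.260).

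Such non-overlap higher in both states was seen in 6 of the 78 genes, against 4.21% of all genes tested, and lower in both in 0, against 4.43%. The kit did not mark strand, so that reads from a gene and from an overlapping gene on the other strand cannot be told apart. Exons of 28 of the 78 overlap an opposite-strand gene. Their averaged median was 0.20, against 0.14 in the other 50, and each group held 8 of the calls.

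**Figure D3:**
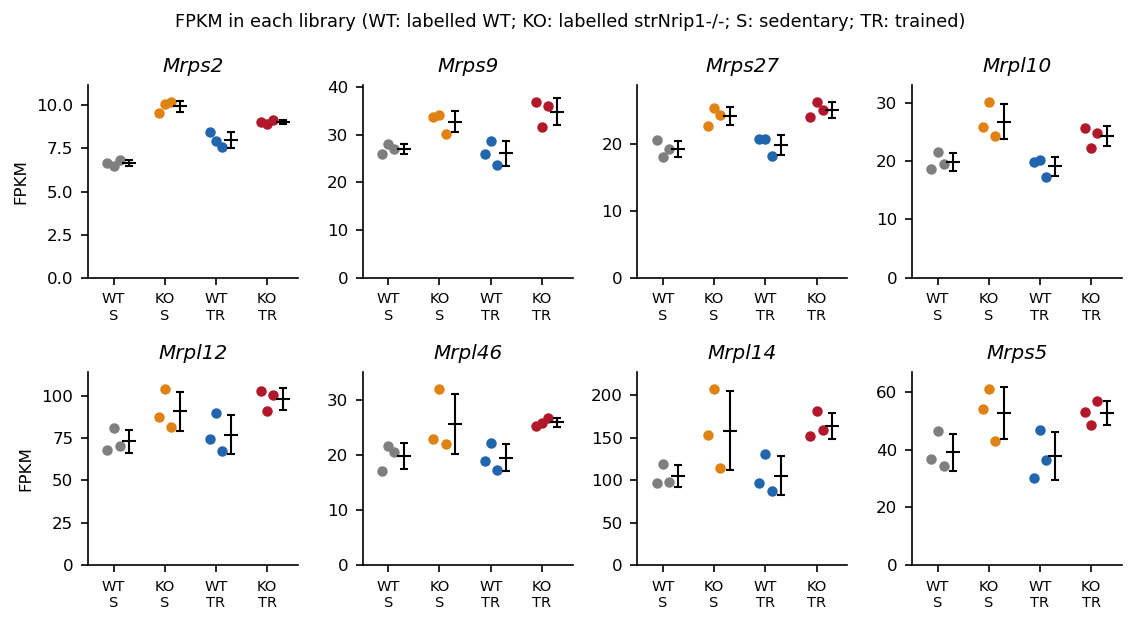
FPKM of 8 genes in each library (points, 3 per labelled group) with mean and SD beside them (black), all axes from 0. In the first 6 panels every labelled strNrip1-/- library is above the labelled WT libraries of the same training state; in Mrpl14 and Mrps5 the sedentary groups overlap.

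Promoters were read to show what the genes with separate groups share in sequence. RefSeq windows of 300 bases (250 before the transcription start to 50 after it, GRCm38.p6) matched 69 of the 78 genes. They were searched on both strands for a core of the NRF1 site (GCGC, any base, then TGCGC), for an ETS core as bound by GABP, CCGGAAG, for a YY1 site, AAGATGGC, and for a core of the estrogen-related receptor site, AAGGTCA, none of which overlaps another in the printed windows. NRF1, GABP and YY1 are transcription factors known for nuclear genes of mitochondria, and RIP140 is known as a corepressor of estrogen-related receptors. The windows below belong to genes with separate groups in both states, on the plus strand, with matches in capitals.
Mrps9, chr1:42850983-42851282: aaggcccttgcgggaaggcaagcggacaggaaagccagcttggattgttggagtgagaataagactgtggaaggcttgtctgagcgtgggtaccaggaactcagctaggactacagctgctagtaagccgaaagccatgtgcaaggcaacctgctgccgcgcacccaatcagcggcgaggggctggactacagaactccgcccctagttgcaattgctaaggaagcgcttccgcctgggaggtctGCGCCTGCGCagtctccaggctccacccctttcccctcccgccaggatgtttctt
Mrpl12, chr11:120484387-120484686: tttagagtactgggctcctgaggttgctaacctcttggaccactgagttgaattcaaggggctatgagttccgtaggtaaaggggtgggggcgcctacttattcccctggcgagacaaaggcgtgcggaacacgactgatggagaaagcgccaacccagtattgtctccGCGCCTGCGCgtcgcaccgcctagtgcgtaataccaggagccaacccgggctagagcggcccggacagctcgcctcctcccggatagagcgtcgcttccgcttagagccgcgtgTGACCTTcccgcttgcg
Mrps27, chr13:99344536-99344835: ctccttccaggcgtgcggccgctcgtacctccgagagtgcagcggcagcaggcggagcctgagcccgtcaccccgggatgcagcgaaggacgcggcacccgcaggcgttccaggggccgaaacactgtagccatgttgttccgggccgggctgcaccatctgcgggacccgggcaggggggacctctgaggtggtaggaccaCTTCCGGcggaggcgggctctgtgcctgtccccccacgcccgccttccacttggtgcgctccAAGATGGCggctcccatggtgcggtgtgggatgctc
Mrps2, chr2:28467816-28468115: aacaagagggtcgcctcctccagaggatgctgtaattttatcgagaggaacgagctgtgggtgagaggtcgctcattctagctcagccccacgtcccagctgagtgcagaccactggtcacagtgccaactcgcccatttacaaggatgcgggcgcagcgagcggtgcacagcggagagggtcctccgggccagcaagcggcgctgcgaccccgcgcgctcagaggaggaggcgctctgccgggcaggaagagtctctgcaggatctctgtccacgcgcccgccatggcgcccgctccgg

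In Mrps9 the NRF1 core began 5 bases before the start, and in Mrpl12 it began 81 bases before it, with an estrogen-related receptor core 33 bases after the start. Mrps27 held an ETS core 48 bases before and a YY1 site 14 bases after the start. Mrps2, Mrpl10 and Mrpl46 held none of the 4. Over the set, the NRF1 core was in 13 of 69 windows (18.8%), against 10.5% of 9627 windows of tested genes and 4.78% of 27025 windows of all genes. The ETS core was in 25 (36.2%, against 18% and 9.12%), the YY1 site in 12 (17.4%, against 4.72% and 2.88%) and the estrogen-related receptor core in 4 (5.8%, against 3.28% and 4.66%). Averaged median log2FC was 0.21 in the 13 genes with an NRF1 core and 0.13 in the 56 without, and 0.14 with and 0.17 without an ETS core. It was 0.11 with and 0.16 without a YY1 site, and 0.063 with and 0.16 without an estrogen-related receptor core. Of the calls, 5 were among the 13 with an NRF1 core and 2 among the 25 with an ETS core. The 12 genes with a YY1 site held 1, as did the 4 with an estrogen-related receptor core. These differences were not tested. A match is a run of letters and not a measured site.

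The other called genes were mostly of the large subunit. Mrpl14, at 96.9, 119 and 98.3 FPKM in labelled WT sedentary and 153, 207 and 114 in labelled strNrip1-/- sedentary libraries, read 97.1, 131 and 87.4 in labelled WT trained and 152, 181 and 159 FPKM in labelled strNrip1-/- trained ones. The sedentary groups overlapped by 1 library and the trained ones did not. It had the largest averaged log2FC of the set, 0.61 (SE 0.14, adjusted p-value 0.0190), and one of the 5 largest spreads. Its exons overlap 106 bases of Tmem63b on the other strand.

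Mrps5, the other gene above 0.45, encodes a small-subunit protein. Its mRNA averaged 39.1 ± 6.39 FPKM in labelled WT and 52.7 ± 8.98 FPKM in labelled strNrip1-/- sedentary libraries, and 37.8 ± 8.40 and 52.8 ± 4.17 FPKM in the trained ones (SD, n = 3 each), with an averaged log2FC of 0.46 (SE 0.12, adjusted p-value 0.0321). Mrpl16 had an averaged log2FC of 0.34 (SE 0.076, adjusted p-value 0.0148). Mrpl45, which tethers the ribosome to the inner membrane beside the exit of the tunnel, had 0.33 (SE 0.075, adjusted p-value 0.0158). For Mrpl9, Mrpl38 and Mrpl3 the values were 0.38, 0.32 and 0.32, with adjusted p-values of 0.0351, 0.0293 and 0.0472. Mrpl4, whose protein lines the exit tunnel, was at 0.28 (adjusted p-value 0.0147), as were Mrps31 (0.28, adjusted p-value 0.0403) and the large-subunit gene Mrps30 (0.28, adjusted p-value 0.0485). Each of these 9 genes was called under between 8 and 24 of the 24 settings.

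**Figure D4:**
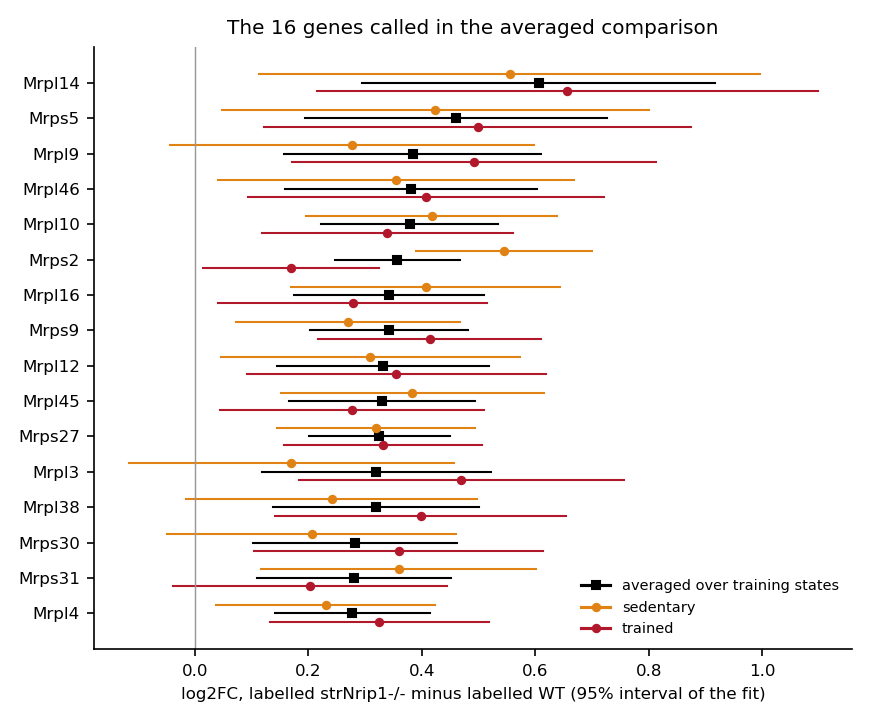
log2FC between labelled genotypes with its 95% interval for the 16 genes called in the average of both training states (black squares), with the sedentary (orange) and trained (red) values beside it. All 16 averaged intervals lie above 0, and the sedentary and trained intervals of each gene overlap except in Mrps2, where 0.54 and 0.17 stand apart.

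At the other end, 9 of the 78 genes read lower on average in libraries labelled strNrip1-/-, and 0 of them was called. The lowest were Mrps14 (-0.14), Mrpl40 (-0.12), Mrps10 (-0.10), Mrpl35 (-0.08) and Mrpl33 (-0.08). Mrps14 was at 40.1 ± 5.26 and 35.8 ± 8.52 FPKM in sedentary and 38.4 ± 3.17 and 36.1 ± 3.98 FPKM in trained muscle, labelled WT first (SD, n = 3 each), within the spread of replicates. The 95% interval of its averaged difference was -0.38 to 0.11. The highest members by level, Mrpl42 and Mrps21, were not called, at 0.09 (95% interval -0.17 to 0.34) and 0.05 (-0.23 to 0.33). Mrps36 was at 0.14 (-0.11 to 0.40), and Mrps18a, of the large subunit, at 0.18 (0.03 to 0.32, adjusted p-value 0.117).

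Training was compared within each labelled genotype next. With limma, 0 of the 78 mRNAs were called in labelled WT and 0 in labelled strNrip1-/- muscle, as were 0.0% of all genes in both comparisons. At an unadjusted p-value under 0.05, 1 was higher in each, Mrps2 in labelled WT and Mrpl3 in labelled strNrip1-/- muscle, and 0 lower, against 4.04% and 6.8% of all genes higher and 4.28% and 5.31% lower. Median log2FC was -0.02 in labelled WT and 0.007 in labelled strNrip1-/- muscle, with 27 and 40 of the 78 higher, against 50.4% and 51.9% of all genes. In labelled WT muscle the groups did not overlap in 1 gene higher (Mrps2) and 1 lower (Mrps12), against 7.76% and 6.5% of all genes. In labelled strNrip1-/- muscle they did not in 1 higher (Mrpl3) and 3 lower (Mrpl21, Mrps2 and Mrps31), against 9.4% and 7.5%. Leaving out 1 library at a time moved the labelled WT median between -0.11 and 0.039. The labelled strNrip1-/- median moved between -0.11 and 0.12, so that neither sign is settled. Differences ranged from -0.38 (Mrpl23) to 0.25 (Mrps2) and from -0.31 (Mrps25) to 0.38 (Mrpl3). The 95% intervals lay within 1.5-fold in either direction for 74 and 73 of the genes and within 1.2-fold for 11 and 9, so that small changes with training could not be resolved. Averaged over genotypes, 0 of the 78 were called, against 0.118% of all genes (0.0785% higher and 0.0392% lower), and 33 read higher, against 52.0% of all genes. In that average 1 was higher (Mrpl3, 0.23, adjusted p-value 0.361) and 1 lower (Mrpl51, -0.20, adjusted p-value 0.430) at an unadjusted p-value under 0.05, against 6.19% and 5.31% of all genes. With the same sum over all genes, which moved the median of all genes in labelled strNrip1-/- muscle to 0.16, Mrpl3 was called there (1 of 78) and the set's median was 0.18.

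No difference between the genotype effects of sedentary and trained muscle passed the test: the interaction was called for 0 of the 78 and for 0.0% of all genes. At an unadjusted p-value under 0.05 it was lower for 1 member, Mrps2, and higher for 0, against 3.37% and 4.39% of all genes. It was above 0 for 45 of the 78 genes, against 51.3%. In Mrps2 it was -0.37 (SE 0.10, adjusted p-value 0.536). The next lowest p-values were those of Mrps26 (0.43), Mrpl1 (-0.33), Mrps22 (-0.34) and Mrpl32 (-0.34), with adjusted p-values of 0.640 to 0.688. Mrps26 read 26.31 ± 1.319 and 26.37 ± 5.194 FPKM in sedentary and 23.1 ± 3.92 and 30.8 ± 1.41 FPKM in trained muscle, labelled WT first (SD, n = 3 each).

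Other genes of mitochondrial translation were read from lists. Of 5 mitoribosomal proteins under other names, 1 was called in the average of both states, Ptcd3 (0.31, SE 0.056, adjusted p-value 0.00419), a small-subunit protein with pentatricopeptide repeats. It read 24.98 ± 1.134 and 35.1 ± 0.429 FPKM in sedentary and 29.5 ± 2.42 and 32.8 ± 2.71 FPKM in trained muscle, labelled WT first (SD, n = 3 each). Of 28 assembly factors, 6 were called higher and 0 lower, against 4.9% and 3.91% of all genes, with a list median of 0.12. They were Nsun4 (0.38) and Mrm3 (0.42), which methylate ribosomal RNA, Eral1 (0.30), a chaperone of the small-subunit RNA, Rpusd4 (0.33), a pseudouridine synthase, Rcc1l (0.27), and Ndufab1 (0.42), the mitochondrial acyl carrier protein, with adjusted p-values of 0.00542 to 0.0249. Ddx28, an RNA helicase, was called in trained muscle (0.29, adjusted p-value 0.0484), with an interaction of 0.22 (adjusted p-value 0.655).

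Of 16 translation factors tested, 4 were called higher in the average and 0 lower, against 4.9% and 3.91% of all genes, with a median of 0.22: the elongation factors Gfm1 (0.33, SE 0.058), Tufm (0.37, SE 0.067) and Tsfm (0.32, SE 0.075) and the initiation factor Mtif3 (0.30, SE 0.081). Gfm1 was called in both states, at 52.3 ± 3.53 and 66.7 ± 1.94 FPKM in sedentary and 58.0 ± 5.29 and 71.9 ± 4.91 FPKM in trained muscle (SD, n = 3 each, adjusted p-values 0.0408 and 0.0490). Lrpprc, which stabilizes mitochondrial mRNAs, and Taco1, an activator of cytochrome c oxidase translation, were called in sedentary muscle (both 0.28, adjusted p-values 0.0383 and 0.0394). Of 22 genes that charge mitochondrial tRNAs (synthetases and the glutamyl-tRNA amidotransferase subunits Gatb, Gatc and Qrsl1), 3 were called higher, the synthetases Aars2 (0.27), Yars2 (0.30) and Ears2 (0.31), and 0 lower, with a median of 0.24, against 4.9% and 3.91% of all genes.

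The ribosome makes the proteins of 13 genes of the mitochondrial genome. The transcripts of these 13 genes had medians between genotypes of 0.41 in sedentary and -0.03 in trained muscle, and 0 were called in either. They come from the same genome, so that the 13 are not independent readings. At an unadjusted p-value under 0.05, 13 of 13 were higher in sedentary muscle, against 7.86% of all genes, and 0 were higher or lower in trained muscle. With training in labelled strNrip1-/- muscle 13 of 13 read lower, with a median of -0.34, 10 of them at an unadjusted p-value under 0.05, against 5.31% of all genes, and 0 were called. Of the 93 cytosolic ribosomal protein genes tested, 0 were called higher and 1 lower in the average, with a median of 0.04. The differences between these lists and the 78 genes were not tested.

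**Figure D5:**
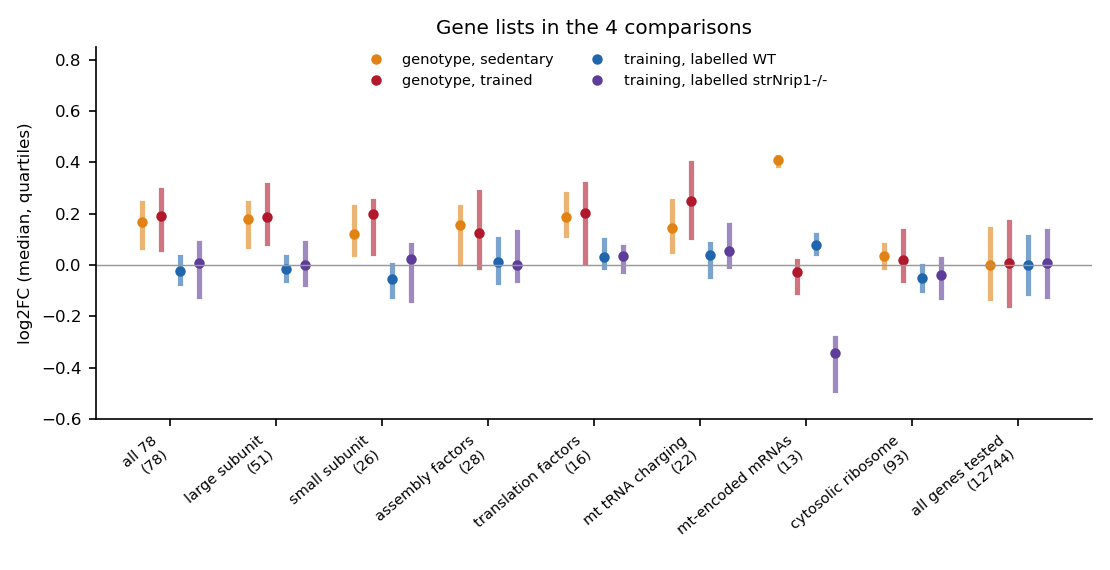
Median (points) and quartiles (bars) of log2FC over the genes of each list (number tested in parentheses) in the 2 genotype and 2 training comparisons. The 78 genes sit at 0.17 and 0.19 between labelled genotypes and near 0 with training, whereas the mitochondrially encoded mRNAs are at 0.41 in sedentary and -0.03 in trained muscle.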

How the data were processed

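RNA from EDL of 12 male mice, 3 per group, was sequenced by the submitters with an unstranded kit. The authors quantified transcripts with Salmon (version 1.10.2) on mm10 and tested differential expression with DESeq2 (version 1.44.0). The values used are the deposited FPKM per gene. How they were scaled between libraries is not given in the sources used here, and their sums differ between libraries. The log2 fold changes and p-values of the authors' own comparisons, also deposited, were not used. The 12744 genes whose mean reached 0.5 FPKM were fitted on log2(FPKM + 0.5) with limma (version 3.58.1, R 4.3.3; lmFit, contrasts.fit and eBayes with a mean-dependent prior) on 4 group means, with two-sided p-values adjusted by Benjamini-Hochberg over all genes. A fold change on this scale understates that of low genes. A call needed an adjusted p-value under 0.05 and a fold change above 1.2, except for the interaction, where the adjusted p-value decided. SD and SE are given as such, and 95% intervals use the moderated variance. Without counts, the scale of each library was estimated from the low values, and it need not equal sequencing depth.

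Genes named were Nrip1, the members called, the 5 highest and 5 lowest by log2FC, level and spread (highest only), the 5 of lowest interaction p-value, those with separate groups in both states, Mrps18a, Mrps30 and Mrps36, and called genes of the lists. Divergent neighbors and Mrps11, Mrps18b and Mrpl50 were named after their values were seen. The members, roles and lists were chosen with earlier results of these data known. Gene positions are from GENCODE M21 and promoters from RefSeq, both GRCm38. The fit was tested on simulated data: of 50 genes changed by 0.3 on the log2 scale among 12744, 18% were called in the sedentary and 40% in the averaged comparison, and of 50 changed by 0.6, 68% and 86%. Nothing in the labels ties replicates to separate cohorts, and p-values measure the spread between these libraries. No pair of libraries held an identical value above 0 for the same gene. The rescalings, filters, pseudocounts, priors and omissions tried are given at the end.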

Additional observations from a re-analysis of the deposited data

Results flagged for a closer look

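Mrps2 differed in opposite directions with training in the labelled genotypes, and neither difference was called. Its 3 trained values were all above the 3 sedentary ones in labelled WT (log2FC 0.25, adjusted p-value 0.416) and all below them in labelled strNrip1-/- muscle (log2FC -0.13, adjusted p-value 0.499). The difference between these effects was tested as the interaction and did not pass (-0.37, adjusted p-value 0.536). Such opposite separation with training was seen in 110 of 12744 genes tested (0.863%). Of the 78 mitochondrial ribosomal protein genes, only Mrps2 had it, a share near that of all genes.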

How the results depend on the processing

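Over all alternatives run, each called gene of the set kept its direction, and every call in the genotype comparisons was higher in libraries labelled strNrip1-/-. In sedentary muscle (2 called) the count was 1 with a constant variance prior, with no filter on low values, with only the 2 groups compared and without the 3 libraries highest in short transcripts, 5 with a mean of at least 5 FPKM and with quantile normalization, 0 with the same sum over all genes (median 0.015) and 16 with the same sum over nuclear genes. In trained muscle (2 called) it was 1 with a constant prior, 7 with a mean of at least 5 FPKM and with quantile normalization, 0 with only the 2 groups, 23 and 17 with the same sum over all and over nuclear genes, and 27 without the 3 libraries, an omission chosen after seeing the data, as was the removal of GC and length trends. Of the trained libraries, that omission takes out only labelled WT trained replicate 2, so that a rise in most of the differences was built in. Its part in the 27 calls was not tested. The averaged comparison (16 called) gave 28 with the same sum over nuclear genes. The counts of this paragraph stand without the share of all genes called under the same setting. With the same sum over all genes, training in labelled strNrip1-/- muscle gave 1 call and a median of 0.18, and the interaction a median of 0.26. Leaving out each library in turn gave 1 to 3 calls in sedentary, 0 to 9 in trained muscle and 7 to 22 in the average, with medians of 0.046 to 0.25, 0.15 to 0.26 and 0.10 to 0.22. Where the cause of a change is not in the setting itself, it was not tested. Replicate numbers did not pair the libraries throughout (r over 0.1 in 5 of 18 same-number pairs, and 4 of 12 libraries correlated best with their own number). The 3 libraries highest in short transcripts, all of replicate number 2, correlated with each other at r of 0.162, 0.195 and 0.241. Labelled strNrip1-/- trained replicate 2 did not join them (r of -0.105, -0.029 and -0.052). What these 3 libraries share was not tested. With the replicate block the trained count was 5, the averaged count 17, and the sedentary adjusted p-value of Mrpl10 0.0532 and the trained one of Mrps27 0.0502. With 3 libraries per group, changes of 0.3 in simulated data were called in 18% of genes in the sedentary and 40% in the averaged comparison. The simulated noise was drawn for each gene on its own, without shifts of whole libraries such as those seen here.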

Other observations

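The mRNA that varied most between replicates was Mrpl23, with a pooled SD of 0.45 on the log2 scale. It read 7.775, 17.96 and 7.151 FPKM in the 3 labelled WT trained libraries. Mrps35, of the small subunit, followed at 0.42, with 7.73, 15.1 and 6.02 FPKM in the labelled WT sedentary libraries. Both are among the lower mRNAs of the set, and with training neither passed the test.

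Of the 78 genes, 26 start within 1000 bp of a protein-coding gene on the other strand that points away. The averaged genotype median was 0.17 in these 26 and 0.16 in the other 52. Of the neighbors, 23 were tested, 15 read higher in libraries labelled strNrip1-/-, 3 were called higher and 1 lower, with a median of 0.064. The calls were Ncapd2 (0.47, beside Mrpl51), Eme2 (0.41, beside Mrps34) and Mrpl46 itself, beside Mrps11, and Hira (-0.28, adjusted p-value 0.0286), beside Mrpl40 (-0.12, not called). No pair had both genes called.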
